A study of Mus musculus with 18 samples.

Results

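Mesoderm, the middle germ layer, passes through a primitive streak stage and is then divided along the body into paraxial mesoderm, which segments into somites, intermediate mesoderm, which gives the kidney, and lateral plate mesoderm, which gives heart, limb and body wall. The genes described here encode 9 transcription factors that mark or direct these steps, taken by name: Mixl1, Mesp1, Lhx1, Meox1, Tcf15, Foxc1, Foxc2, Tcf21 and Hand2. A row was read for 8 of the 9 among the 21995 genes of the count table, and Mesp1 was not analysed here. All 8 passed the filter on low counts, which kept 18352 genes.

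The 18 libraries, 3 in each of 6 groups, hold total RNA from ESCs of the mouse, embryonic stem cells that can form every lineage of the embryo. The groups are cells of the genotype Oct1_cKO and of the genotype Parental, each as undifferentiated ESCs at day 0 and at days 2 and 6 of differentiation on 0.01% gelatin in medium with 1.5 ug/ml retinoic acid, a vitamin A derivative that drives ESCs out of pluripotency. The source labels also call the 2 genotypes KO and WT, and the series title names Oct1, Smad factors and mesoderm. Neither the deleted part of the Oct1 gene, nor the way it was deleted, nor the number of clones is in the labels, and separate cultures are not named for the replicates. The p-values thus measure a spread between libraries that may be technical.

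Library totals ran from 13694126 to 19296966 counts, and 3 counts, the limit that a count of 0 allows, came to between 0.136 and 0.235 CPM (counts per 1000000 counts, with library sizes scaled by TMM factors). Pou2f1, the gene of Oct1, had a mean of 79.3 CPM in the Oct1 cKO and 129 CPM in the parental cells at day 0, 59.7 CPM in the Oct1 cKO and 103 CPM in the parental cells at day 2, and 42.0 CPM in the Oct1 cKO and 63.4 CPM in the parental cells at day 6, so its reads were fewer but not lost. Cd247, which overlaps Pou2f1 on the other strand, held 30 counts over the 18 libraries, against 24732 for Pou2f1. Replicate 3 of the Oct1 cKO at day 0 stood apart from the other 2 of its group, with a chi-square statistic per degree of freedom of 10.8 and 10.4, against 1.22 between those 2. Levels of 10 pluripotent cell markers, Pou5f1 and Nanog among them, were summed. At day 0 the sums were 6498 to 6525 CPM in the Oct1 cKO and 5292 to 5351 CPM in the parental cells. At day 6 they were 204 to 212 CPM in the Oct1 cKO and 47.1 to 52.4 CPM in the parental cells. By the edgeR test, 7 of the 10 were higher in the Oct1 cKO at day 6 and 1 was lower. The lower 1 was Nanog, with 0.342 CPM in the Oct1 cKO and 1.345 CPM in the parental cells.

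Summed over the 8 genes, the regulators took up 7.84 to 9.66 CPM in the Oct1 cKO and 5.13 to 6.02 CPM in the parental libraries at day 0. At day 2 the sums were 13.9 to 16.9 CPM in the Oct1 cKO and 59.5 to 67.2 CPM in the parental libraries, and at day 6 they were 13.5 to 20.0 CPM in the Oct1 cKO and 94.6 to 102 CPM in the parental libraries. In bulk RNA, fewer cells of a type and less RNA per cell cannot be told apart.

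**Figure D1:**
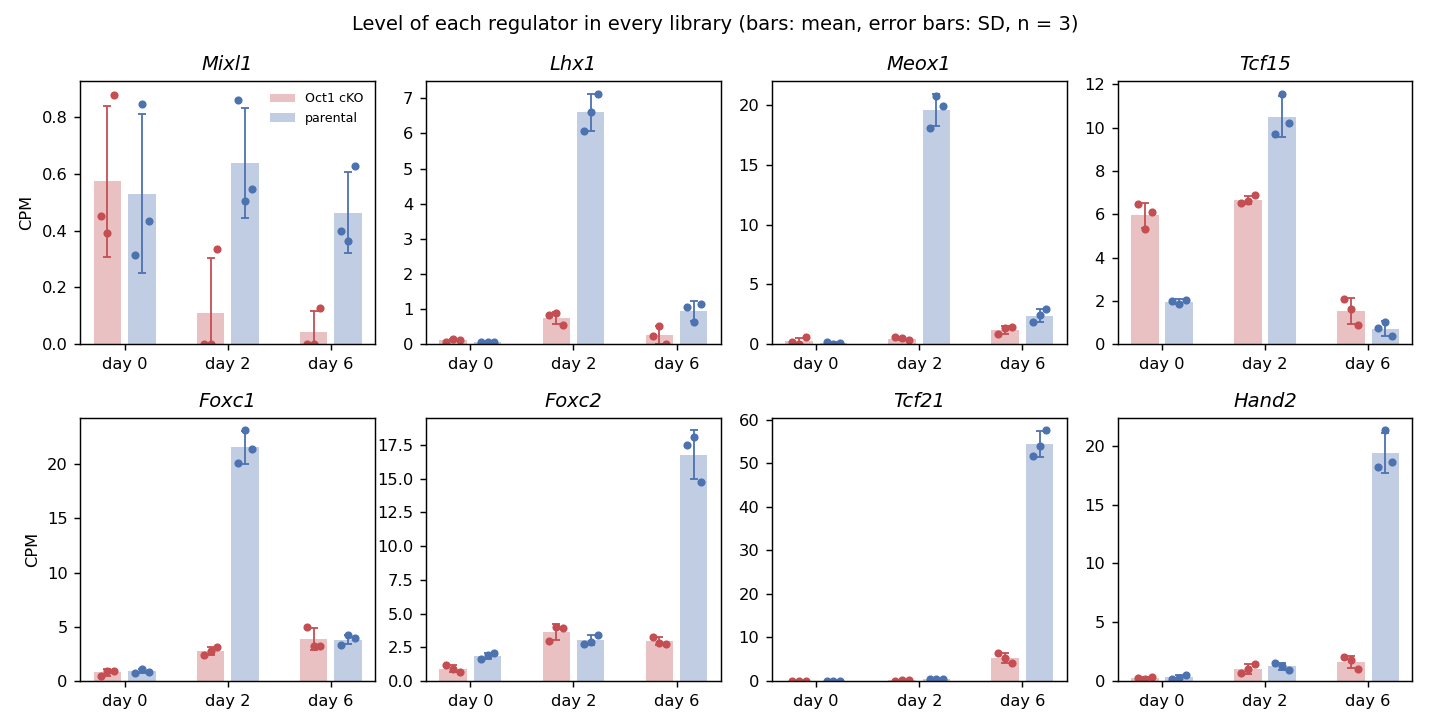
CPM (y axis, linear from 0, its own range for each gene) of the 8 regulators at days 0, 2 and 6, with Oct1 cKO left of parental. Points are the libraries, bars the mean and error bars the SD (n = 3). Lhx1, Meox1 and Foxc1 stood highest in the parental libraries at day 2, and Foxc2, Tcf21 and Hand2 in the parental libraries at day 6.

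The members fell into 2 timings in the parental cells. Meox1, Foxc1, Lhx1 and Tcf15 had their highest level at day 2, and Tcf21, Hand2 and Foxc2 at day 6. Per kilobase of exon, which allows genes to be set side by side, Tcf15 and Meox1 led at day 2 of the parental cells with 10.7 and 8.80 CPM per kb, before Foxc1 at 3.69 and Lhx1 at 1.62. At day 6 of the parental cells Tcf21 led with 23.1 CPM per kb, before Hand2 at 8.24 and Foxc2 at 6.16. In the Oct1 cKO the highest levels per kb were those of Tcf15, at 6.08 at day 0 and 6.80 at day 2, and at day 6 that of Tcf21, at 2.25.

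Upstream sequence was at hand for 4 members, Foxc1, Lhx1, Hand2 and Tcf21, in RefSeq's annotation of GRCm38.p6. The 250 bases before the RefSeq start are printed for Foxc1 and Lhx1, which peaked at day 2 of the parental cells, and for Hand2, which peaked at day 6. Foxc1 and Lhx1 were the pair of members with the least different courses. For Foxc1, Lhx1 and Tcf21 the end of the stretch falls inside the gene as placed by the GENCODE annotation, whose positions are given below. Foxc1 lies at chr13:31806396-31806645 (plus strand), Lhx1 at chr11:84525535-84525784 (minus strand) and Hand2 at chr8:57320733-57320982 (plus strand), each 5′ to 3′ along its gene. Capitals mark matches to the CCAAT box and to the E-box, the site of the family of Hand2 and Tcf21.
Foxc1: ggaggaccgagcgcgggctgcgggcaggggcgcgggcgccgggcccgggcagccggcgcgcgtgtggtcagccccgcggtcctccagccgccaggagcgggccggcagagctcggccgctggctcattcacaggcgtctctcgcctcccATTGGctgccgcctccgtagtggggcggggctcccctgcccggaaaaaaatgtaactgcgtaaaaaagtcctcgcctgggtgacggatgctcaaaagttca
Lhx1: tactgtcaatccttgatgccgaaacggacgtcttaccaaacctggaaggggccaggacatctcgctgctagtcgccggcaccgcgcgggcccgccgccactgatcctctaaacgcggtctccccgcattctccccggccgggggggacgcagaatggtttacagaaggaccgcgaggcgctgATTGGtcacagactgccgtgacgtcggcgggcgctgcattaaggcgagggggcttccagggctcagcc
Hand2: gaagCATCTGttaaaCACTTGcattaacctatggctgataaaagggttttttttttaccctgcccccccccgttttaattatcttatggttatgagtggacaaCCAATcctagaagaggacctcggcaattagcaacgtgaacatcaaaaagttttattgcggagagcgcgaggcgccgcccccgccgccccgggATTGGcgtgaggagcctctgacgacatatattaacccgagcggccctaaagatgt

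The capitals in Foxc1 and Lhx1 are 1 CCAAT box each, written on the other strand, and Hand2 holds 2 CCAAT boxes and 2 E-boxes. Both strands were searched for the octamer that POU factors bind (letters ATGCAAAT), a site of retinoic acid receptors (letters AGGTCA), a palindromic Smad box (letters GTCTAGAC), a shorter Smad core (letters CAGACA), the E-box (letters CANNTG), the CCAAT box (its own letters) and the TATA box (letters TATAAA). Overlaps between different motifs were allowed. In none of the 4 sequences were the letters of the octamer, the receptor site, either Smad motif or the TATA box found, and Tcf21 held no match at all. Of 32851 RefSeq promoters of the same 250 bases, 1.6% held the octamer, 14% the receptor site, 0.167% the Smad palindrome, 17.1% the Smad core, 66.2% an E-box, 33.8% a CCAAT box and 12.4% a TATA box. The CCAAT and TATA boxes were added to the search after the sequences had been read. GC made up 70.8% of the Foxc1, 64.8% of the Lhx1, 52.4% of the Tcf21 and 49.2% of the Hand2 sequence, against a median of 52.4% over all promoters. The CpG dinucleotides stood at 0.928, 0.991 and 0.993 of expectation in Foxc1, Lhx1 and Hand2, at 0.293 in Tcf21, and at a median of 0.373 over all promoters.

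The first comparison asks how the genotypes differed before retinoic acid. Tcf15 was higher and Foxc2 lower in the Oct1 cKO, and the other 6 regulators were not called. At an adjusted p under 0.05, 26.4% of the tested genes passed as higher at this day and 27% as lower, so 1 of 8 in each direction is no more than the share over all genes. Over the 7 members with counts in both groups the median log2 fold change was 0.13, against 0 over all genes.

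At day 2 the Oct1 cKO held less of 5 of the 8 regulators and more of 0. Meox1 differed most between the genotypes, followed by Lhx1, Foxc1, Mixl1 and Tcf15. Foxc2, Tcf21 and Hand2 were not called. Of all genes 33.6% were called lower and 33.7% higher at day 2, and the median log2 fold change was -1.84 over the 8 members and -0.01 over all genes.

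At day 6, 6 of the 8 were lower in the Oct1 cKO and 1, Tcf15, was higher. Hand2, Tcf21 and Foxc2, the genes with a late peak, were lower by 12.05, 10.2 and 5.69 times in summed scaled counts, and Lhx1, Meox1 and Mixl1 were lower too. Of all genes 37.8% were called lower and 36.7% higher, with a median log2 fold change of -2.16 over the members and 0 over all genes. Foxc1 was not called at this day.

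**Figure D2:**
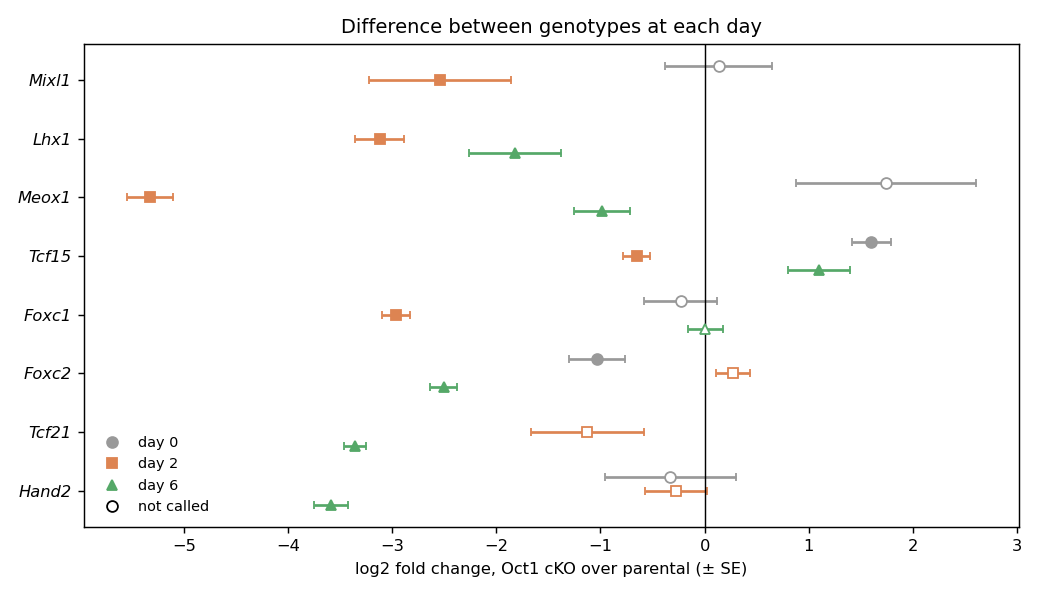
Log2 fold change of Oct1 cKO over parental (x axis, ± SE of the fit) for each regulator at days 0, 2 and 6. Filled symbols passed an adjusted p of 0.05, and values with a group of 3 counts or fewer (Mixl1 at day 6, Lhx1 and Tcf21 at day 0) are left out. Meox1 lies lowest at day 2, at -5.33, and Hand2 at day 6, at -3.59.

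Mixl1 is a homeobox factor of the primitive streak (ENSMUSG00000026497, GRCm38 chr1:180693043-180697034, minus strand). Its level was low in every library. In the Oct1 cKO it had 0.451, 0.392 and 0.878 CPM at day 0, 0, 0 and 0.334 CPM at day 2, and 0, 0 and 0.127 CPM at day 6. Parental libraries held 0.313, 0.844 and 0.434 CPM at day 0, 0.859, 0.505 and 0.548 CPM at day 2, and 0.398, 0.363 and 0.627 CPM at day 6. The genotypes overlapped at day 0, and from day 2 each Oct1 cKO library lay below each parental one. Between genotypes Mixl1 differed by 0.13 ± 0.51 (SE, log2) at day 0 (adjusted p = 0.857), and its day 2 value was -2.54 ± 0.68 (adjusted p = 0.00133). Replicates 1 and 2 of the Oct1 cKO held no count at day 2, and the fold moved to -1.94 without replicate 2. Without replicate 3, which held all 5 counts, the group was at 0 and the fitted value of -6.50 depends on the prior count. Mixl1 was called in both cases. At day 6 there were 2 counts in the Oct1 cKO, both in replicate 3, against 27 in the parental cells, a ratio of 0.087 (95% counting interval 0.01 to 0.346, adjusted p = 0.00114).

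Lhx1 is a LIM homeobox factor of the node, the visceral endoderm, the intermediate mesoderm and, later, spinal interneurons (ENSMUSG00000018698, GRCm38 chr11:84518284-84525535, minus strand). The Oct1 cKO libraries held 0.0752, 0.157 and 0.126 CPM at day 0, 0.824, 0.875 and 0.535 CPM at day 2, and 0.238, 0.521 and 0 CPM at day 6. Parental levels were 0.0625, 0.0563 and 0.062 CPM at day 0, 6.06, 6.62 and 7.13 CPM at day 2, and 1.045, 0.623 and 1.15 CPM at day 6. At days 2 and 6 the genotypes did not overlap. Lhx1 fell by 3.12 ± 0.24 on the log2 scale at day 2 (adjusted p = 2.85e-14) and by 1.82 ± 0.44 at day 6 (adjusted p = 0.000312). The day 6 value was -2.82 without replicate 2 and -1.30 without replicate 3 of the Oct1 cKO, and was called in both cases. At day 0 there were 5 counts over the Oct1 cKO libraries and 3 over the parental ones, a ratio of 1.98 with an interval of 0.385 to 12.8.

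Meox1 is a homeobox factor of the somite (ENSMUSG00000001493, GRCm38 chr11:101877510-101894374, minus strand). The Oct1 cKO held 0.226, 0 and 0.565 CPM at day 0, 0.570, 0.525 and 0.334 CPM at day 2, and 0.834, 1.33 and 1.46 CPM at day 6. In parental cells it stood at 0.188, 0 and 0.062 CPM at day 0, at 18.1, 20.8 and 20.0 CPM at day 2, and at 1.84, 2.44 and 2.93 CPM at day 6. Every Oct1 cKO library was below every parental one at days 2 and 6, and the groups overlapped at day 0. Summed scaled counts were 40.7 times lower in the Oct1 cKO at day 2 (95% counting interval 27 to 64.5), with a log2 fold change of -5.33 ± 0.22 (adjusted p = 3.39e-21). By day 6 the gap was 1.99 times, -0.99 ± 0.27 (adjusted p = 0.0012). At day 0 Meox1 was not called (1.74 ± 0.87, adjusted p = 0.0893), on 12 counts in the Oct1 cKO and 4 in the parental cells. It was called when parental replicate 1 was left out (2.99, adjusted p = 0.0334) and without replicate 2 of the Oct1 cKO (2.26, adjusted p = 0.0151), and stood at 0.49 without replicate 3 of the Oct1 cKO.

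Meox1 and Lhx1 lie on chromosome 11, where levels leaned to lower values in the Oct1 cKO. The median log2 fold change of 974 genes with a mean of at least 5 CPM on this chromosome was -0.38, -0.37 and -0.39 at days 0, 2 and 6. Medians of the other autosomes ran from -0.06 to 0.14, from 0.05 to 0.16 and from 0.03 to 0.17. Of these chromosome 11 genes 99.3% lay below Meox1 and 98.05% below Lhx1 at day 0, when neither regulator was called. At day 2 0% lay below Meox1 and 0.205% below Lhx1, and 23.7% and 10.7% did so at day 6. The part of the chromosome's shift in the 2 values was not tested.

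Tcf15, or paraxis, is a basic helix-loop-helix factor of paraxial mesoderm that is also present in ESCs about to leave pluripotency (ENSMUSG00000068079, GRCm38 chr2:152143561-152149097, plus strand). It had 6.47, 5.33 and 6.09 CPM at day 0, 6.53, 6.59 and 6.89 CPM at day 2, and 2.08, 1.62 and 0.890 CPM at day 6 in the Oct1 cKO. Parental libraries had 2.0, 1.86 and 2.05 CPM, 9.72, 11.6 and 10.2 CPM, and 0.746, 1.04 and 0.366 CPM at the same days. The order of the genotypes thus changed between days. Tcf15 was higher in the Oct1 cKO at day 0 by 1.60 ± 0.19 (adjusted p = 4.14e-09), lower at day 2, with a log2 fold change of -0.65 ± 0.13 (adjusted p = 3.15e-05), and higher again at day 6 by 1.098 ± 0.30 (adjusted p = 0.00112). Replicate 3 of the Oct1 cKO overlapped the parental libraries at day 6. Leaving out the day 0 library of the Oct1 cKO that stood apart gave 1.59, still called.

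Foxc1 and Foxc2 are paralogous forkhead factors of somite, head and vascular mesenchyme, each with 1 exon. Foxc1 (ENSMUSG00000050295, GRCm38 chr13:31806633-31812476, plus strand) had 0.451, 0.941 and 0.941 CPM at day 0, 2.35, 2.80 and 3.14 CPM at day 2, and 5.002, 3.24 and 3.24 CPM at day 6 in the Oct1 cKO. The parental values were 0.750, 1.13 and 0.868 CPM, 20.1, 23.1 and 21.4 CPM, and 3.33, 4.20 and 3.92 CPM. Day 2 stood apart, with all Oct1 cKO libraries below all parental ones, and at days 0 and 6 the groups overlapped. Foxc1 was called lower at day 2, with a log2 fold change of -2.96 ± 0.14 (adjusted p = 8.02e-21). Its values were -0.23 ± 0.35 before differentiation (adjusted p = 0.619) and 0.01 ± 0.17 on the last day (adjusted p = 0.973). The 95% counting interval of the day 6 ratio ran from 0.825 to 1.23.

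Foxc2 (ENSMUSG00000046714, GRCm38 chr8:121116171-121118895, plus strand) had 1.20, 0.863 and 0.690 CPM at day 0, 2.98, 3.97 and 3.94 CPM at day 2, and 3.275, 2.84 and 2.73 CPM at day 6 in the Oct1 cKO. In parental cells it had 1.63, 1.91 and 2.05 CPM, 2.71, 2.88 and 3.44 CPM, and 17.5, 18.1 and 14.7 CPM. The groups overlapped at day 2 and were apart at days 0 and 6. Before retinoic acid Foxc2 was lower in the Oct1 cKO, with a log2 fold change of -1.03 ± 0.27 (adjusted p = 0.00144), or -0.84 when replicate 3 of that group was left out (adjusted p = 0.0198). On day 6 it was lower again, at -2.50 ± 0.13 (adjusted p = 7.26e-20). The day 2 value was 0.27 ± 0.17 (adjusted p = 0.141), with a counting interval of the ratio from 0.979 to 1.50.

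The balance of the paralogues differed between the genotypes. Per kb, Foxc1 was 0.355 of Foxc2 in the Oct1 cKO and 3.35 times Foxc2 in the parental cells at day 2. At day 6 it was 0.594 of Foxc2 in the Oct1 cKO and 0.106 in the parental cells. The log2 of the ratio was -1.49 ± 0.10 (SD, n = 3) in the Oct1 cKO and 1.75 ± 0.19 in the parental cells at day 2, and -0.75 ± 0.23 in the Oct1 cKO and -3.24 ± 0.24 in the parental cells at day 6. Its libraries did not overlap between genotypes at either day. At day 0 it spread from -2.52 to -0.65 in the Oct1 cKO and from -2.34 to -1.87 in the parental cells.

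Tcf21 is a basic helix-loop-helix factor of the epicardium and of lung and kidney mesenchyme (ENSMUSG00000045680, GRCm38 chr10:22817281-22820174, minus strand). Its counts at day 0 were 0, 0 and 1 in the Oct1 cKO and 0 in all 3 parental libraries. At day 2 it had 0.0634, 0.233 and 0.267 CPM in the Oct1 cKO and 0.362, 0.505 and 0.399 CPM in the parental cells. The levels at day 6 were 6.49, 5.27 and 4.07 CPM in the Oct1 cKO and 51.55, 53.9 and 57.55 CPM in the parental libraries. At days 2 and 6 every Oct1 cKO library was below every parental one. Tcf21 was lower in the Oct1 cKO at day 6, with a log2 fold change of -3.36 ± 0.10 (adjusted p = 2.61e-26). At day 2 it was not called (-1.13 ± 0.54, adjusted p = 0.0655), and it passed without replicate 1 (adjusted p = 0.0497) or replicate 3 (adjusted p = 0.0477) of the Oct1 cKO at day 6, and with library sizes alone (-1.32, adjusted p = 0.0321).

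Hand2 is a basic helix-loop-helix factor of heart, limb and branchial arch mesenchyme and of sympathetic neurons (ENSMUSG00000038193, GRCm38 chr8:57320983-57324633, plus strand). The Oct1 cKO held 0.226, 0.157 and 0.314 CPM at day 0, 0.634, 0.992 and 1.47 CPM at day 2, and 2.03, 1.74 and 1.02 CPM at day 6. Parental libraries held 0.188, 0.225 and 0.496 CPM, 1.54, 1.26 and 0.897 CPM, and 18.2, 21.3 and 18.6 CPM. The groups overlapped at days 0 and 2 and were far apart at day 6. Hand2 was lower in the Oct1 cKO at day 6, at -3.59 ± 0.16 on the log2 scale (adjusted p = 9.06e-22). Its earlier values, -0.33 ± 0.63 before differentiation (adjusted p = 0.696) and -0.28 ± 0.30 on day 2 (adjusted p = 0.418), were not called. An antisense gene, Hand2os1, shares 461 exonic bases with Hand2, and reads of the 2 cannot be told apart without strand. It held 104 counts over the 18 libraries, against 1364 for Hand2. No exon of another annotated gene overlapped those of the other 7 members.

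The next comparison asks how each genotype changed with time. From day 0 to day 2 most regulators rose in both, with 5 of 8 called higher and 1 called lower for the Oct1 cKO, and 7 of 8 higher and 0 lower in the parental cells. The shares of all genes that passed were 41% higher and 35.5% lower for the Oct1 cKO, and 43.2% higher and 37.7% lower for the parental cells. From day 2 to day 6 there were 4 higher and 2 lower in the Oct1 cKO, where 39.6% and 41.6% of all genes were called, and 3 higher and 4 lower in the parental cells, where 42.6% and 36.9% were called.

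In the early step, Meox1 showed the widest gap between genotypes. It was not called in the Oct1 cKO (0.74 ± 0.59, adjusted p = 0.254), or 1.98 without replicate 3 at day 0 (adjusted p = 0.0194), and rose by 7.81 ± 0.30 in the parental cells (adjusted p = 5.35e-23). That parental value rests on 4 counts at day 0 and was 9.06 without replicate 1 and 7.22 without replicate 2 of the parental cells at day 0. Foxc1 rose by 1.80 ± 0.28 in the Oct1 cKO (adjusted p = 2.92e-07) and by 4.54 ± 0.17 in the parental cells (adjusted p = 1.56e-24). Lhx1 counts rose 6.31 times in the Oct1 cKO (95% counting interval 2.47 to 20.6) and 109.5 times in the parental cells (37.2 to 533), against only 5 and 3 counts at day 0. Tcf15 was not called in the Oct1 cKO (0.16 ± 0.15, adjusted p = 0.345) and rose by 2.41 ± 0.16 in the parental cells (adjusted p = 2.8e-16).

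Foxc2 went the other way in size, with a rise of 1.99 ± 0.24 in the Oct1 cKO (adjusted p = 1.15e-09) and of 0.69 ± 0.19 in the parental cells (adjusted p = 0.00135). Hand2 rose by 2.07 ± 0.48 in the Oct1 cKO (adjusted p = 0.000197) and by 2.02 ± 0.39 in the parental cells (adjusted p = 1.74e-05). The difference of the 2 was not called (0.05 ± 0.63, adjusted p = 0.963) and ran from -0.47 to 0.34 under the alternatives. Both rises start from few counts at day 0, 10 in the Oct1 cKO and 15 in the parental cells, too few to show that they were equal. Mixl1 fell by 2.42 ± 0.74 in the Oct1 cKO (adjusted p = 0.00343), by 1.82 without replicate 2 and by a fitted 6.39 without replicate 3 of day 2, which held every count, and was not called in the parental cells (0.25 ± 0.46, adjusted p = 0.622). For Tcf21, with 0 parental counts at day 0, the parental rise was at least 2.33-fold against a floor of 3 counts per library. The Oct1 cKO held 9 counts at day 2 and 1 at day 0 (ratio 7.89, 95% counting interval 1.09 to 346), and its call was lost without replicate 1 or 2 at day 0 or replicate 2 or 3 at day 2, with adjusted p up to 0.0907.

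**Figure D3:**
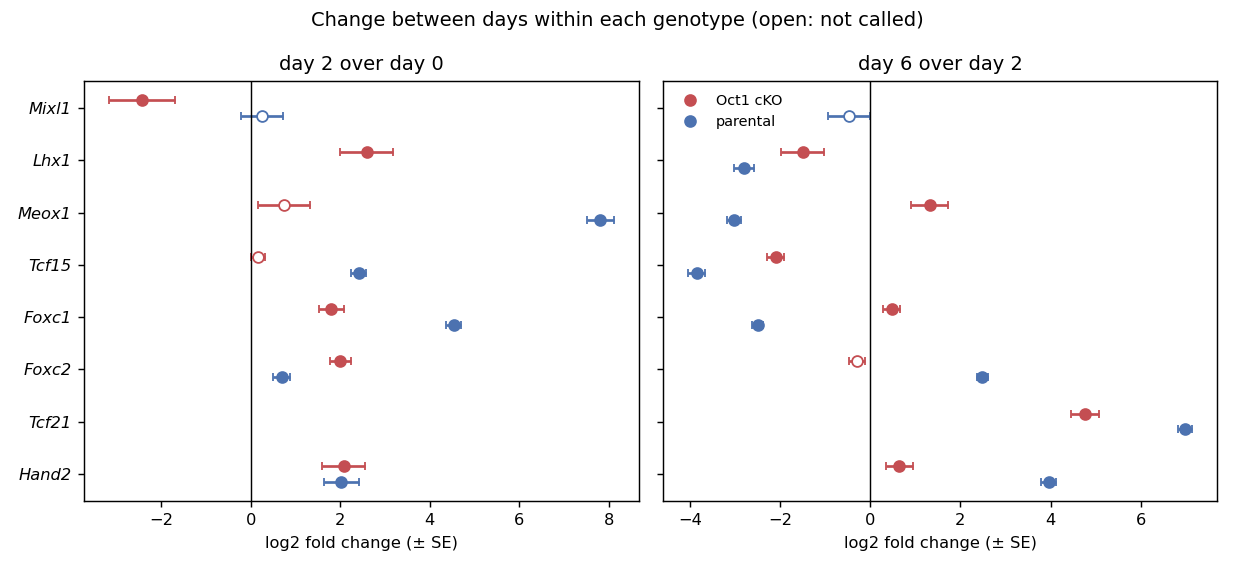
Log2 fold change (x axis, ± SE of the fit) between successive days for the 8 regulators, day 2 over day 0 on the left and day 6 over day 2 on the right, with Oct1 cKO above parental. Open symbols were not called and values with a group of 3 counts or fewer are left out. Between days 2 and 6 Meox1 and Foxc1 lie right of 0 in the Oct1 cKO and left of 0 in the parental cells.

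In the later step, the genes of the early peak turned down in the parental cells. Meox1 rose by 1.31 ± 0.40 in the Oct1 cKO (adjusted p = 0.00328) and fell by 3.03 ± 0.15 in the parental cells (adjusted p = 2.25e-19). Tcf15 fell by 2.10 ± 0.19 in the Oct1 cKO (adjusted p = 1.15e-12) and by 3.85 ± 0.19 in the parental cells (adjusted p = 2.37e-20). Lhx1 fell by 1.50 ± 0.48 in the Oct1 cKO (adjusted p = 0.00445), or by 2.54 without replicate 2 and by 0.97 without replicate 3 of day 6, still called, and by 2.80 ± 0.22 in the parental cells (adjusted p = 1.27e-14). Foxc1 was called higher in the Oct1 cKO (0.47 ± 0.19, adjusted p = 0.0191) and fell by 2.50 ± 0.12 in the parental cells (adjusted p = 1.07e-20). The Oct1 cKO call of Foxc1 did not pass when scaled by library size only (0.28, adjusted p = 0.156), without replicate 1 of day 2 (0.36, adjusted p = 0.104) and without replicate 1 of day 6 (0.23, adjusted p = 0.289).

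Tcf21 rose in both genotypes over this step, by 4.76 ± 0.31 in the Oct1 cKO (adjusted p = 1.51e-16) and by 6.99 ± 0.15 in the parental cells (adjusted p = 7.68e-31). Hand2 rose by 0.65 ± 0.29 in the Oct1 cKO (adjusted p = 0.0424) and by 3.96 ± 0.16 in the parental cells (adjusted p = 3.36e-23). The Oct1 cKO call of Hand2, whose libraries overlapped between the days, did not pass when scaled by library size only (adjusted p = 0.152), in a fit of only the libraries compared (adjusted p = 0.0608), and without replicate 1 or 2 of day 2 or of day 6 (adjusted p = 0.0925 to 0.247). Foxc2 was not called in the Oct1 cKO (-0.30 ± 0.17, adjusted p = 0.111) and rose by 2.48 ± 0.12 in the parental cells (adjusted p = 1.85e-20). With library sizes alone (-0.49, adjusted p = 0.0102), or without replicate 1 of day 2 (-0.43, adjusted p = 0.0351), Foxc2 was called lower in the Oct1 cKO. Mixl1 was called in neither genotype, with 2 counts at day 6 and 5 at day 2 in the Oct1 cKO (ratio 0.385, 95% counting interval 0.0366 to 2.35) and a parental value of -0.47 ± 0.46 (adjusted p = 0.343). The Oct1 cKO direction of Mixl1 rests on single libraries, since the fitted log2 value was 2.71 without replicate 3 of day 2 and -3.95 without replicate 3 of day 6, which left a day at 0, and neither was called.

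The change between days was tested against genotype directly. From day 0 to day 2 it differed for 6 of the 8 regulators, where 57% of all genes were called, and from day 2 to day 6 for 6 of the 8, where 63.5% were called.

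Over the 6 groups, the order of the levels was as follows. For Meox1 the parental cells at day 2 came first, then the parental cells at day 6, the Oct1 cKO at day 6 and the Oct1 cKO at day 2, which overlapped the Oct1 cKO at day 0, itself overlapping the parental cells at day 0. Foxc1 was led by the parental cells at day 2, its next 2 groups, both at day 6, overlapped, and so did its last 2, both at day 0. Lhx1 was led by the parental cells at day 2, before the parental cells at day 6 and the Oct1 cKO at day 2, which overlapped. Tcf15 ran from the parental cells at day 2 through the Oct1 cKO at day 2 and at day 0 to the parental cells at day 0, which overlapped the Oct1 cKO at day 6. Tcf21 had the parental cells at day 6 first and the Oct1 cKO at day 6 second, with no overlap. Hand2 and Foxc2 had the parental cells at day 6 first and then 3 groups whose neighbours overlapped, the Oct1 cKO at day 6 and both genotypes at day 2. Of the 6 groups of Mixl1 each of the first 4 overlapped the next of them, and the Oct1 cKO at days 2 and 6 stood last.

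The course over the 6 groups of log2 CPM, each centred on its mean, was set against that of up to 12663 genes whose log2 CPM averaged 1 or more. Likeness was the root mean square difference over the 6 groups, where a small value is alike. Nearest to Foxc2 were Klhl29 (0.21), Efnb2, an ephrin ligand (0.28), and Adamts2, a procollagen protease (0.29). Closest to Hand2 were Slc8a1, a sodium-calcium exchanger (0.29), Tmtc2 (0.33) and Tmem98 (0.36), and to Tcf21 came Nr2f2, a nuclear receptor also called COUP-TFII (0.56), Unc5c, a netrin receptor (0.59), and Gucy1b1 (0.78). For Foxc1 they were Amigo2 (0.30), Tap2 (0.47) and Zfp703 (0.49), for Lhx1 they included Amigo2 (0.55) and Tmem246 (0.63), and for Meox1 Gfra1 (0.73), Spsb4 (0.78) and Foxc1 (0.83). Tcf15 was nearest to Kndc1 (0.31), Gm16048 (0.32) and Nudt17 (0.46), and Mixl1 to AC154486.3 (0.18), Ehd3 (0.31) and Nat8f4 (0.34). Mixl1 held 2 to 40 counts per group, where the prior count of 2 narrows the course, so its small values show no better match. The day 0 levels of Meox1, Lhx1 and Tcf21, on 0 to 12 counts per group, are limited in the same way. Among the members, Foxc1 and Lhx1 were the closest pair (0.70), then Foxc2 and Hand2 (0.79), while Tcf15 and Tcf21 were farthest apart (4.25).

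Other genes of the same steps were counted in lists that leave out the members themselves, against the shares of all genes given for each day. The lists share genes, so their counts are not independent. Nodal, Lefty2, Wnt3 and Wnt3a stand in both the streak and the signal lists, and Bmp4 in both the lateral plate and the signal lists. Cdx2, Evx1, Hand1, Pax2 and Pax3 are also among the markers of other cells given below. In the primitive streak and nascent mesoderm list, 7 of 14 tested genes were higher and 1 lower in the Oct1 cKO at day 0, 2 higher and 5 lower at day 2, and 5 higher and 2 lower at day 6. Eomes, a T-box factor of the streak, had 14.4 ± 0.91 CPM (SD, n = 3) in the Oct1 cKO and 5.40 ± 0.65 CPM in the parental cells at day 0 (1.42 ± 0.11 SE, adjusted p = 2.85e-13), and 4.33 CPM in the Oct1 cKO and 0.887 CPM in the parental cells at day 6 (2.28 ± 0.20, adjusted p = 3.12e-13). Nodal, the ligand that induces mesoderm, had 75.7 CPM in the Oct1 cKO and 124 CPM in the parental cells at day 2 (-0.71 ± 0.06, adjusted p = 6.04e-12), and Lefty2, an inhibitor of nodal, had 73.6 CPM in the Oct1 cKO and 165 CPM in the parental cells (-1.16 ± 0.06, adjusted p = 2.8e-20). Lefty2 was lower at day 0 too (205.4 CPM in Oct1 cKO, 280.8 CPM in parental cells). Also named by the rule was Cdx1 at day 0 (33.1 CPM in Oct1 cKO, 10.7 CPM in parental cells). At day 6 the rule named Snai1 (34.8 CPM in Oct1 cKO, 18.6 CPM in parental cells) and Cdx2 (9.14 CPM in Oct1 cKO, 3.20 CPM in parental cells). Each was higher in the Oct1 cKO. Cdx2 is also among the 10 trophoblast markers, of which 9 were higher at day 6. The list's median log2 fold change without members was 0.39 at day 0 and -0.27 at day 2.

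Genes of the presomitic mesoderm and segmentation clock had 1 of 10 higher and 3 lower at day 0, 2 higher and 5 lower at day 2, and 5 higher and 2 lower at day 6, with medians of -0.20, -0.42 and 0.45. Lfng, a glycosyltransferase that modifies Notch in the clock, was lower at each day, with 0.951 CPM in the Oct1 cKO and 1.66 CPM in the parental cells at day 0 (-0.80 ± 0.26, adjusted p = 0.00953), 3.36 CPM in the Oct1 cKO and 11.5 CPM in the parental cells at day 2 (-1.77 ± 0.13, adjusted p = 5.71e-15) and 0.440 CPM in the Oct1 cKO and 7.96 CPM in the parental cells at day 6 (-4.15 ± 0.21, adjusted p = 2.59e-20). Rspo3, an enhancer of Wnt signalling, had 0.253 CPM in the Oct1 cKO and 1.55 CPM in the parental cells at day 2 and 0.762 CPM in the Oct1 cKO and 14.1 CPM in the parental cells at day 6 (-4.19 ± 0.17, adjusted p = 2.62e-23). Dll1, a Notch ligand, was lower at day 0 (2.16 CPM in Oct1 cKO, 7.85 CPM in parental cells), as was Ripply1 (1.58 CPM in Oct1 cKO, 2.56 CPM in parental cells). Cyp26a1, which degrades retinoic acid, was lower at day 2 (220.4 CPM in Oct1 cKO, 338 CPM in parental cells), and Cited1 was higher at day 6 (49.7 CPM in Oct1 cKO, 23.7 CPM in parental cells).

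Among other somite genes, 3 of 8 were higher and 1 lower at day 0, 2 higher and 3 lower at day 2, and 1 higher and 3 lower at day 6, with medians of 0.28, -0.16 and -0.36. Tbx18, a T-box factor of the anterior somite and of epicardium, was higher in the Oct1 cKO at day 0 (5.70 CPM in Oct1 cKO, 2.80 CPM in parental cells) and lower at day 6 (2.22 CPM in Oct1 cKO, 11.7 CPM in parental cells, -2.38 ± 0.13, adjusted p = 3.66e-19). Aldh1a2, the enzyme that makes retinoic acid in the somites, was lower at day 6 (13.1 CPM in Oct1 cKO, 92.3 CPM in parental cells, -2.81 ± 0.08, adjusted p = 2.24e-28). Scx, a tendon progenitor factor, was lower at day 2 (1.70 CPM in Oct1 cKO, 4.58 CPM in parental cells), and Pax1, of the sclerotome, was higher at day 0 (1.32 CPM in Oct1 cKO, 0.284 CPM in parental cells).

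Lateral plate and cardiac genes had 3 of 15 higher and 4 lower at day 0, 3 higher and 7 lower at day 2, and 3 higher and 10 lower at day 6, with medians of -0.57 at day 2 and -1.68 at day 6. Wt1, a zinc finger factor of the epicardium and the kidney that stands in 2 of the lists, had 8.31 CPM in the Oct1 cKO and 56.7 CPM in the parental cells at day 2 (-2.76 ± 0.10, adjusted p = 2.26e-18) and 8.71 CPM in the Oct1 cKO and 480.1 CPM in the parental cells at day 6 (-5.78 ± 0.09, adjusted p = 3.51e-27). Gata6 was higher in the Oct1 cKO at day 2 (26.5 CPM in Oct1 cKO, 10.8 CPM in parental cells, 1.29 ± 0.08, adjusted p = 6.81e-17) and lower at day 6 (68.0 CPM in Oct1 cKO, 304 CPM in parental cells, -2.16 ± 0.06, adjusted p = 1.06e-29). At day 0 the rule named Bmp4 (6.04 CPM in Oct1 cKO, 1.64 CPM in parental cells) and Nkx2-5 (1.43 CPM in Oct1 cKO, 0.382 CPM in parental cells), higher in the Oct1 cKO, and Prrx1 (9.27 CPM in Oct1 cKO, 15.2 CPM in parental cells), lower.

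Intermediate mesoderm and early kidney genes had 1 of 11 higher and 4 lower at day 0, 1 higher and 8 lower at day 2, and 5 higher and 4 lower at day 6, with medians of -0.22, -1.13 and 0.36. Emx2, of the early urogenital ridge, was lower at day 6 (0.602 CPM in Oct1 cKO, 23.0 CPM in parental cells, -5.24 ± 0.16, adjusted p = 2.82e-27). Sall1 was lower at day 0 (131 CPM in Oct1 cKO, 153 CPM in parental cells) and day 2 (31.1 CPM in Oct1 cKO, 68.1 CPM in parental cells) and higher at day 6 (90.3 CPM in Oct1 cKO, 21.6 CPM in parental cells), and Eya1 was higher at day 0 (10.3 CPM in Oct1 cKO, 4.89 CPM in parental cells).

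Signals that pattern mesoderm had 5 of 18 higher and 7 lower at day 0, 4 higher and 9 lower at day 2, and 3 higher and 10 lower at day 6, with medians of -0.03, -0.66 and -0.77. Lefty1 was lower at days 0 and 2 (21.1 CPM in Oct1 cKO and 107 CPM in parental cells, then 95.3 CPM in Oct1 cKO and 483 CPM in parental cells), and Tdgf1, the nodal co-receptor, was higher at day 2 (368 CPM in Oct1 cKO, 109.6 CPM in parental cells). Axin2, a Wnt target on chromosome 11, was lower at day 0 (38.0 CPM in Oct1 cKO, 72.9 CPM in parental cells) and at day 6 (4.07 CPM in Oct1 cKO, 69.6 CPM in parental cells, -4.09 ± 0.08, adjusted p = 9.15e-33). Id3, a BMP target, was higher at day 0 (69.4 CPM in Oct1 cKO, 38.0 CPM in parental cells) and lower at day 6 (31.5 CPM in Oct1 cKO, 276 CPM in parental cells, -3.13 ± 0.07, adjusted p = 1.08e-29), and Wnt5a was lower at day 6 (16.5 CPM in Oct1 cKO, 76.1 CPM in parental cells).

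**Figure D4:**
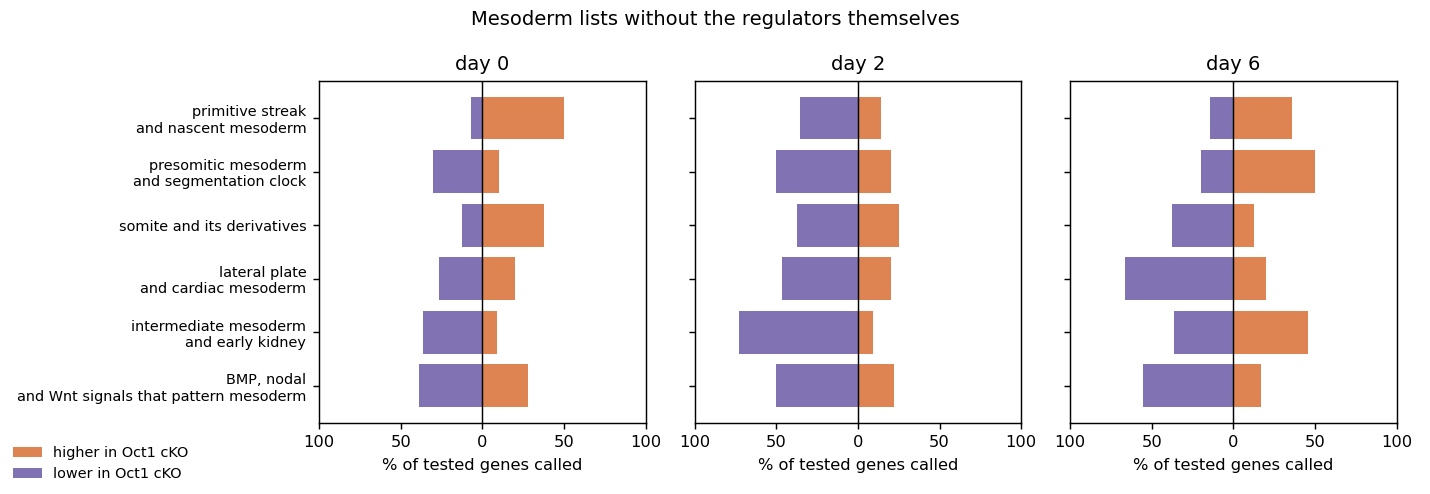
Percent of the tested genes of each list (x axis) called higher (right of 0) or lower (left of 0) in the Oct1 cKO than in parental cells at days 0, 2 and 6, with the 8 members left out of the lists. The intermediate mesoderm list has its widest lower bar at day 2, with 8 of 11 genes, and the lateral plate list at day 6, with 10 of 15.

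Several members are also made by other cells, so marker lists of those cells were read beside them. Neural crest cells, for example, can express Foxc1, Foxc2 and Hand2, and 3 of 8 neural crest markers were higher and 1 lower at day 0, 0 higher and 5 lower at day 2, and 1 higher and 4 lower at day 6. Their summed level was 124 to 136 CPM in the Oct1 cKO and 86.3 to 92.5 CPM in parental libraries at day 0, 25.2 to 27.7 CPM in the Oct1 cKO and 62.0 to 65.05 CPM in parental libraries at day 2, and 50.4 to 54.25 CPM in the Oct1 cKO and 127 to 136 CPM in parental libraries at day 6. Ngfr (59.6 CPM in Oct1 cKO, 23.4 CPM in parental cells) and Foxd3 (58.3 CPM in Oct1 cKO, 56.75 CPM in parental cells) made up most of the day 0 sums. At day 6 Foxd3 had 0 counts in the Oct1 cKO and 2 in the parental cells, and was not called. Most of the parental sum at day 6 was Ets1 (61.4 CPM), Snai2 (40.8 CPM) and Ngfr (24.9 CPM). Sox10 (0.0815 CPM in Oct1 cKO, 0.103 CPM in parental cells) and Pax3 (0.422 and 0.309 CPM) were low at day 6 and not called. Tfap2a was the 1 marker called higher (9.91 CPM in Oct1 cKO, 1.86 CPM in parental cells). Fibroblast markers numbered 1 of 10 higher and 8 lower at day 0, 3 and 5 at day 2, and 1 and 8 at day 6. They summed to 365 to 379 CPM in the Oct1 cKO and 1172 to 1239 CPM in parental libraries at day 0, 151 to 180.4 CPM in the Oct1 cKO and 224.5 to 247 CPM in parental libraries at day 2, and 706 to 801 CPM in the Oct1 cKO and 4373 to 4672 CPM in parental libraries at day 6, with none at 0.

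Neuron and spinal interneuron markers, read because such neurons can express Lhx1, had 3 of 11 tested genes higher and 3 lower at days 0 and 2, and 4 higher and 6 lower at day 6. The sums were 397 to 463 CPM in the Oct1 cKO and 356 to 364 CPM in parental libraries at day 0. At day 2 they were 149 to 162 CPM in the Oct1 cKO and 58.45 to 63.4 CPM in parental libraries. At day 6 they were 34.7 to 42.9 CPM in the Oct1 cKO and 212 to 218.5 CPM in parental libraries. Stmn2 alone held 324 CPM in the Oct1 cKO and 271 CPM in the parental cells at day 0, and 117 and 28.2 CPM at day 2. At day 6 it held 1.88 CPM in the Oct1 cKO and 91.35 CPM in the parental cells, and Dcx 0.769 and 104.5 CPM. At day 6 Neurog1 had 0 counts in the Oct1 cKO and 1 in the parental cells, and Neurog2 had 1 and 0. Visceral endoderm also expresses Lhx1, and 2 of 9 of its markers were higher and 3 lower at days 0 and 2, and 7 higher and 2 lower at day 6. These summed to 25.5 to 27.45 CPM in the Oct1 cKO, with Ttr and Apoa1 at 0, and 14.3 to 17.6 CPM in parental libraries, with Ttr at 0, at day 0. Later sums were 229.9 to 289 CPM in the Oct1 cKO and 195 to 207 CPM in parental libraries at day 2. At day 6 they were 667 to 781 CPM in the Oct1 cKO and 276 to 311 CPM in parental libraries. Most of each later sum was Cubn, with 235.5 CPM in the Oct1 cKO and 174 CPM in the parental cells at day 2. At day 6 Cubn held 545 CPM in the Oct1 cKO and 217 CPM in the parental cells.

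Endothelium and blood markers had 1 of 8 tested genes higher and 3 lower at day 0, 1 and 6 at day 2, and 5 and 2 at day 6. Their sums were 126 to 135.5 CPM in the Oct1 cKO and 307 to 315 CPM in parental libraries at day 0. At day 2 they were 88.6 to 94.5 CPM in the Oct1 cKO and 68.4 to 79.35 CPM in parental libraries. At day 6 they were 559 to 584 CPM in the Oct1 cKO and 428 to 440.0 CPM in parental libraries, with Hbb-y at 0 in both genotypes. Pecam1 made up most of the day 0 sums (106 CPM in Oct1 cKO, 277 CPM in parental cells). At day 2 Pecam1 was the 1 marker called higher in the Oct1 cKO (74.2 CPM in Oct1 cKO, 28.8 CPM in parental cells), which raised the sum. The 6 called lower at day 2 included Kdr (0.723 CPM in Oct1 cKO, 10.2 CPM in parental cells). The day 6 sums hide genes of opposite direction. Kdr was lower in the Oct1 cKO (12.9 CPM in Oct1 cKO, 226 CPM in parental cells). Cdh5 (277 CPM in Oct1 cKO, 90.3 CPM in parental cells) and Flt1 (260 CPM in Oct1 cKO, 107.5 CPM in parental cells) were higher. Trophoblast markers had 5 of 10 higher and 1 lower at day 0, 2 and 3 at day 2, and 9 and 0 at day 6. Those summed to 129 to 137 CPM in the Oct1 cKO and 125 to 126.5 CPM in parental libraries at day 0, 72.2 to 77.2 CPM in the Oct1 cKO and 75.1 to 77.9 CPM in parental libraries at day 2, and 1136 to 1227 CPM in the Oct1 cKO and 251 to 256.5 CPM in parental libraries at day 6, with Prl3d1 at 0 in both genotypes until day 2. Pluripotent cell markers had 4 of 10 higher and 2 lower at day 0, 9 and 0 at day 2, and 7 and 1 at day 6, and at day 2 summed to 986 to 1038 CPM in the Oct1 cKO and 300.2 to 322 CPM in parental libraries. The part of any of these cells in the levels of the regulators was not tested.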

How the data were processed

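RNA-seq of total RNA was used as the counts that the authors deposited, whole numbers of reads per Ensembl gene with no normalization, 1 column for each of 18 libraries, matched to the samples by title. Replicates are numbered in accession order within a group, as names only. Per the submitters' processing notes, Novoalign, the builds mm10 and GRCm38, and DESeq2 1.10.0 were involved, with no role given. No counter, annotation release or strand setting is named by the labels. Positions and exonic lengths come from GENCODE M21 (GRCm38), in which 21977 of the 21995 genes were found.

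All genes were fitted with the quasi-likelihood test of edgeR 4.0.16 in R 4.3.3 (robust glmQLFit, TMM factors, filterByExpr with minimum count 10 and total 15), with a coefficient for each of 6 groups, in 9 comparisons. Adjusted p is Benjamini-Hochberg over the genes of a comparison, called under 0.05. SE is the log2 fold change over the root of the F statistic. Counting intervals are exact conditional binomial ones at 95% and, like the floor of 3 counts, cover counting error only. Log2 CPM had a prior count of 2.

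The members and lists were chosen with earlier results of these data known. From each mesoderm list, up to 3 called genes with the smallest adjusted p at each day are named, with Pou2f1 and, for each member, the 3 genes of nearest course. A few genes that this rule names are not reported here. Alternatives were DESeq2 1.42.0, its size factors in edgeR, library sizes alone, TMM factors without chromosome 11, no filter, a fit of only the libraries compared, and leaving out each library.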

Additional observations from a re-analysis of the deposited data

Results flagged for a closer look

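The change between days differed between the genotypes by the interaction term of the edgeR fit, with n = 3 libraries in each of 4 groups, for these regulators. The values are the log2 change in the Oct1 cKO minus that in the parental cells. From day 0 to day 2 it was -7.07 ± 0.995 (SE) for Meox1 (adjusted p = 1.8e-07), -4.03 ± 1.18 for Lhx1 (adjusted p = 0.00359), -2.73 ± 0.41 for Foxc1 (adjusted p = 5.23e-07), -2.68 ± 0.88 for Mixl1 (adjusted p = 0.00939) and -2.25 ± 0.23 for Tcf15 (adjusted p = 9.58e-11). Foxc2 differed in the other direction, at 1.31 ± 0.32 (adjusted p = 0.000594). The value of Lhx1 rests on 3 parental counts at day 0. That of Meox1 was -8.32 without replicate 1 of the parental cells at day 0 and -5.83 without replicate 3 of the Oct1 cKO at day 0. That of Mixl1 was -2.07 without replicate 2 and a fitted -6.64 without replicate 3 of the Oct1 cKO at day 2, which held all 5 counts.

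From day 2 to day 6 the difference was 4.34 ± 0.43 for Meox1 (adjusted p = 5.2e-11), 2.97 ± 0.23 for Foxc1 (adjusted p = 1.75e-14) and 1.75 ± 0.32 for Tcf15 (adjusted p = 1.09e-05), genes that had peaked at day 2 in the parental cells. It was -3.31 ± 0.38 for Hand2 (adjusted p = 9.59e-10), -2.78 ± 0.22 for Foxc2 (adjusted p = 4.39e-14) and -2.23 ± 0.69 for Tcf21 (adjusted p = 0.00532), the genes that peaked at day 6. The call of Tcf21 was lost without replicate 2 (-2.03, adjusted p = 0.0511) or replicate 3 (-1.94, adjusted p = 0.0592) of the Oct1 cKO at day 2.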

How the results depend on the processing

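Under the alternatives, 1680 values of single members kept their side of the threshold and their direction where called, 15 lost a call, 16 gained one and 0 called values changed sign. Counts of members called stayed within 1.5 times of those reported in all but 1 case. In a fit of only the libraries compared, 2 members were called from day 0 to day 2 in the Oct1 cKO instead of 6, since that filter left 3 members to test. The genotype difference of Lhx1 from day 2 to day 6 (1.30, adjusted p = 0.0595) was called by DESeq2 (1.38), by edgeR with size factors of DESeq2 (1.40), with TMM factors outside chromosome 11 (1.36), in a fit of only the libraries compared (1.39) and without any of 4 single libraries (1.42 to 1.83). It fell to 0.32 without replicate 2 of the Oct1 cKO at day 6 (adjusted p = 0.814). Scaling by library size without TMM moved the median over all genes to -0.20 at day 2 and -0.19 at day 6 between genotypes and to 0.42 from day 0 to day 2 in parental cells. Called genes then split into 4263 higher and 8187 lower at day 2 (6187 and 6172 with TMM), 5241 and 8414 at day 6 (6740 and 6940), and 10130 and 4589 from day 0 to day 2 in parental cells (7924 and 6913). For the genotype difference in the early step they split into 4094 and 6317 (5526 and 4937). Depth limits Mixl1, and Meox1, Lhx1, Tcf21 and Hand2 at day 0, whose groups hold 0 to 40 counts. It also limits Foxc1 (33 counts) and Foxc2 (38) in the Oct1 cKO at day 0, and Tcf21 at day 2 (9 in Oct1 cKO, 26 in parental cells). In the Oct1 cKO, Meox1 (23) and Lhx1 (36) at day 2 and Lhx1 (13) at day 6 were as thin. No paired analysis was possible because the labels give no replicate numbers, and those used here pair no libraries.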
